A study of Mus musculus with 96 samples.

Results

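The response of the liver to calorie restriction was examined in 129S1/SvImJ, an inbred mouse strain. The 16 arrays whose titles name this strain, 1 mouse each, were used: 8 from calorie restricted mice and 8 from mice on the control diet, of 96 arrays in the series. All mice were male. They came at an age of 6 weeks and lived in single cages, at first for 2 weeks on 84 kcal a week of purified food, then received a diet restricted by 25% in calories or the control diet from 8 weeks until tissue was taken at 22 weeks. The remaining 80 arrays, 8 restricted and 8 control mice in each of B6C3F1/J, DBA/2J, C57BL6/J, CBA/J and C3H/HeJ, served for the estimate of the spread and for a comparison of the diet effect between strains. Neither the hour of collection nor the time since the last meal was stated in the labels. Total RNA was labelled and hybridised to single-colour Affymetrix mouse genome arrays, and values below are log2 of the deposited signal, a scale on which levels of different genes cannot be compared.

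The liver stores energy after a meal and releases it between meals. Insulin, acting in part through the transcription factor SREBP-1c, raises the enzymes that turn glucose into fatty acids, and its relative SREBP-2 does the same for cholesterol synthesis. When fat arrives from adipose tissue, the nuclear receptor PPAR-alpha raises the enzymes that oxidise fatty acids in mitochondria and peroxisomes, the microsomal omega-hydroxylases of the Cyp4a family and the hormone FGF21.

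The arrays of both diets were alike in scale. The median log2 signal lay between 6.64 and 6.99 on the restricted arrays and between 6.63 and 6.97 on the control arrays. The 9 measured hepatocyte markers had a mean of 16.01 ± 0.23 in restricted livers and 16.13 ± 0.29 in control livers (SD, n = 8 each). Of 13 array measures, covering 10 cell type lists, RNA quality and the median, none differed between the diets after adjustment (exact permutation tests over 12870 splits, two-sided, adjusted p from 0.212 to 0.729). The lowest of these p-values belonged to stellate cell markers, at 8.98 ± 0.25 in restricted livers and 8.65 ± 0.28 in control livers (exact p = 0.0163, adjusted p = 0.212). Restricted replicate 5 and control replicates 2 and 8 lay farthest from the median of their own diet group on the first 2 principal components of the 16 arrays, at distances of 57.1, 69.4 and 87.2, with control replicate 4 next at 50.8. On the first component, control replicates 2 and 8 scored 79.5 and 79.2, against at most 16.3 for any other array. On the second, restricted replicate 5 scored 57.8, against 6.4 to 23.8 for the other restricted arrays. By correlation restricted replicate 5 was close to its group, with a median of 0.904 against 0.905 to 0.914 for the other restricted arrays. The choice of these 3 arrays was made after seeing the data, and many of the counts below are also given without them. As these are bulk samples, fewer cells of a type and less RNA per cell cannot be told apart.

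Of 14813 genes tested with limma, 413 were higher in restricted livers (2.79%) and 366 were lower (2.47%) at an adjusted p under 0.05. At least 1.5-fold differences were reached by 359 of the higher and 275 of the lower genes, and at least 4-fold differences by 31 and 28. The median difference of all genes was 0.049. In 256 of the 779 called genes the groups did not overlap, so such separation was not particular to the genes named below. The share among all genes tested was not counted, so a lack of overlap describes a gene below and adds no support to its call. Without the 3 arrays above, 277 genes were higher and 249 lower. Leaving out instead the arrays of other strains with a median log2 signal above 8, which enter only the estimate of the spread, raised the counts to 761 and 626. In 91 of the called genes the lower group lay below the mean array median of 6.707, where the size of a difference is uncertain. Many of the measured enzymes of fatty acid oxidation and other PPAR-alpha targets fell, with 14 of 22 and 8 of 15 called, and many enzymes of fatty acid and cholesterol synthesis rose, with 8 of 19 and 8 of 17 called. These lists hold a small share of all called genes.

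**Figure D1:**
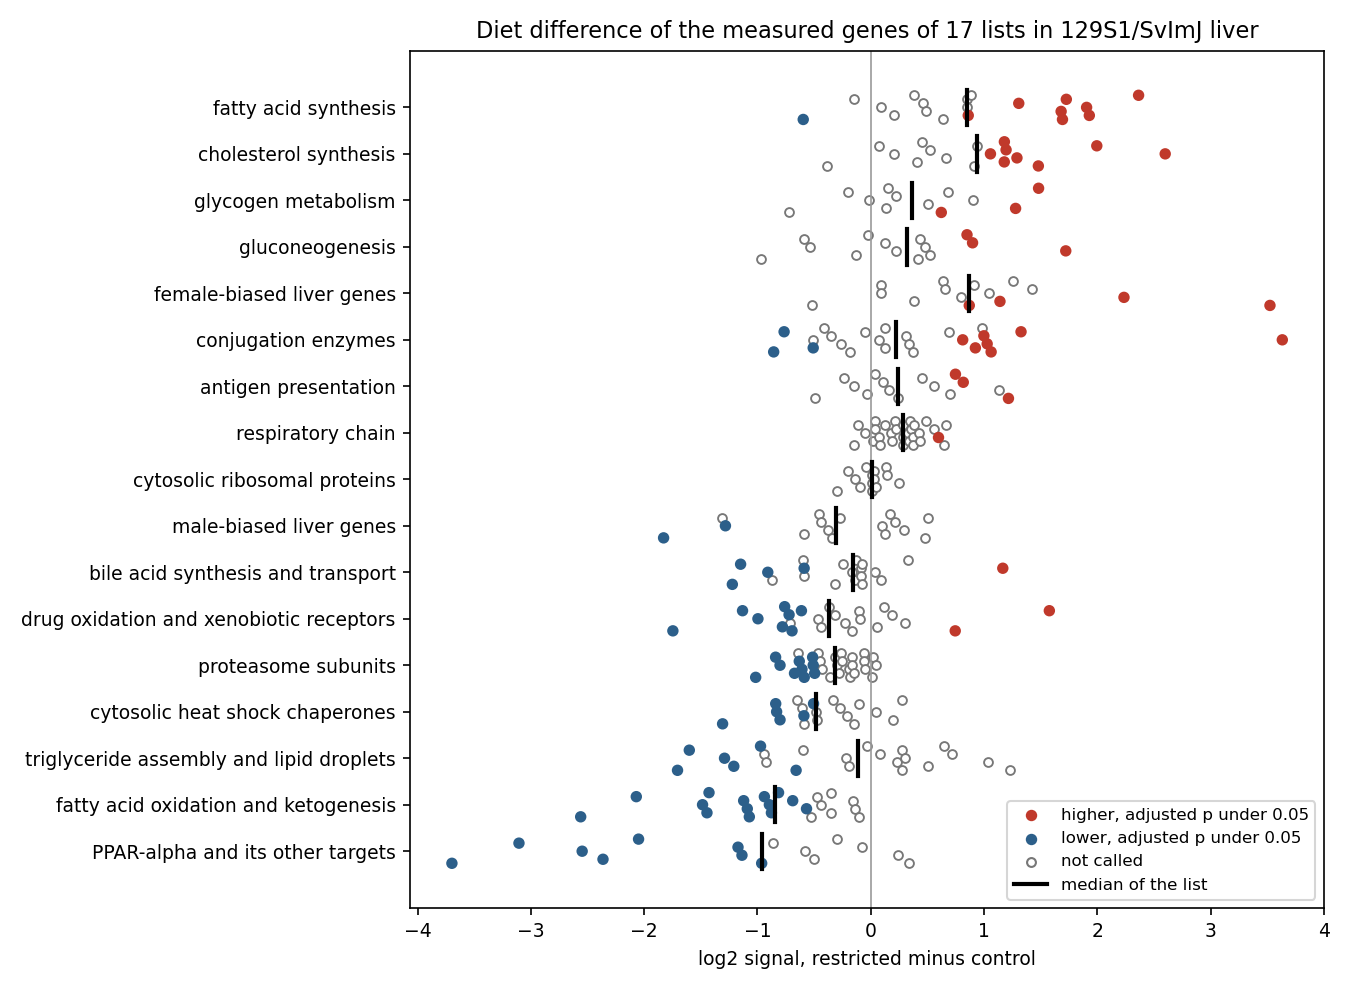
Difference in log2 signal, restricted minus control (x axis), of every measured gene of 17 lists in 129S1/SvImJ liver (y axis), 1 point per gene, with genes called at an adjusted p under 0.05 filled and list medians as bars. Fatty acid and cholesterol synthesis had medians of 0.85 and 0.94, fatty acid oxidation and PPAR-alpha targets medians of -0.85 and -0.96, and ribosomal proteins a median of 0.01.

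Genes of fatty acid oxidation were lower in restricted livers. Of 22 measured enzymes of fatty acid oxidation and ketogenesis, 14 fell, 0 rose, and the differences had a median of -0.85, against 0.05 for all genes tested. The fallen genes were Cpt2, Slc25a20, Crat, Acadm, Hadha, Hadhb, Hadh, Eci1, Decr1, Etfdh, Acat1, Ehhadh, Acaa1b and Ech1, which span carnitine transport, mitochondrial and peroxisomal beta-oxidation and ketone body metabolism. Without the 3 arrays above, 12 fell. Ehhadh, the bifunctional enzyme of peroxisomal beta-oxidation, had a lowest, median and highest signal of 12.59, 12.73 and 13.11 in restricted livers, against 14.91, 15.33 and 15.82 in control livers. The groups did not overlap, and Ehhadh was 5.9-fold lower in restricted livers (log2 difference -2.56 ± 0.22, adjusted p = 2.94e-16). Acaa1b, a peroxisomal thiolase, had 14.73, 15.37 and 15.5 in restricted livers, against 16.36, 16.66 and 17.33 in control livers in the same order. It too was lower in every restricted mouse than in any control mouse (-1.45 ± 0.19, adjusted p = 7.14e-09).

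Enzymes of mitochondria fell as well. Eci1, an isomerase needed for unsaturated fatty acids, lay between 12.63 and 13.33 in restricted livers and between 14.04 and 14.9 in control livers (log2 difference -1.43 ± 0.19, adjusted p = 7.14e-09). Crat, carnitine acetyltransferase, had signals of 8.55, 8.98 and 9.66 in restricted livers, against 9.485, 11.15 and 11.99 in control livers (lowest, median and highest). Its groups overlapped through control replicate 8 alone, one of the 3 arrays that stood apart, and the difference was -2.07 ± 0.28, adjusted p = 1.36e-08. Cpt1a, which makes the acylcarnitines that enter mitochondria, averaged 14.13 ± 0.48 in restricted livers and 14.28 ± 0.64 in control livers (SD, n = 8 each). Its difference did not pass the test (-0.16 ± 0.24, adjusted p = 0.863) and had a 95% interval of -0.64 to 0.33.

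Other targets of PPAR-alpha moved the same way. Of 15 measured, 8 fell and 0 rose, with a median of -0.96, and 8 fell without the 3 arrays. The fallen genes were Cyp4a14, Cyp4a31, Vnn1, Fgf21, Acot1, Acot2, Slc22a5 and Aldh3a2. Acot1, a cytosolic thioesterase that splits long-chain acyl-CoA, had signals of 6.23, 8.83 and 10.84 in restricted livers, against 12.33, 12.72 and 13.43 in control livers. It was 13-fold lower (log2 difference -3.7 ± 0.45, adjusted p = 1.54e-09), and the restricted mice were widely spread. Cyp4a14, a fatty acid omega-hydroxylase, had 12.21, 12.85 and 14.54 in restricted livers, against 16.07, 16.43 and 16.69 in control livers in the same order (log2 difference -3.11 ± 0.39, adjusted p = 2.8e-09). Its relative Cyp4a31 differed by -2.55 ± 0.28, adjusted p = 2.14e-11, and Vnn1, the pantetheinase that recycles coenzyme A precursors, by -2.36 ± 0.26, adjusted p = 3.96e-11. In all 4 genes the groups did not overlap. Fgf21, a liver hormone induced by fasting and by PPAR-alpha, had 7.2, 8.24 and 9.69 in restricted livers, against 9.34, 10.52 and 11.59 in control livers and overlapped slightly (log2 difference -2.05 ± 0.35, adjusted p = 1.1e-05). None of the 11 PPAR-alpha list members with a promoter sequence held AGGTCANAG, part of the PPAR element, against 2.3% of all genes with a promoter. Both strands were searched, from 250 bases before to 50 after the start.

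**Figure D2:**
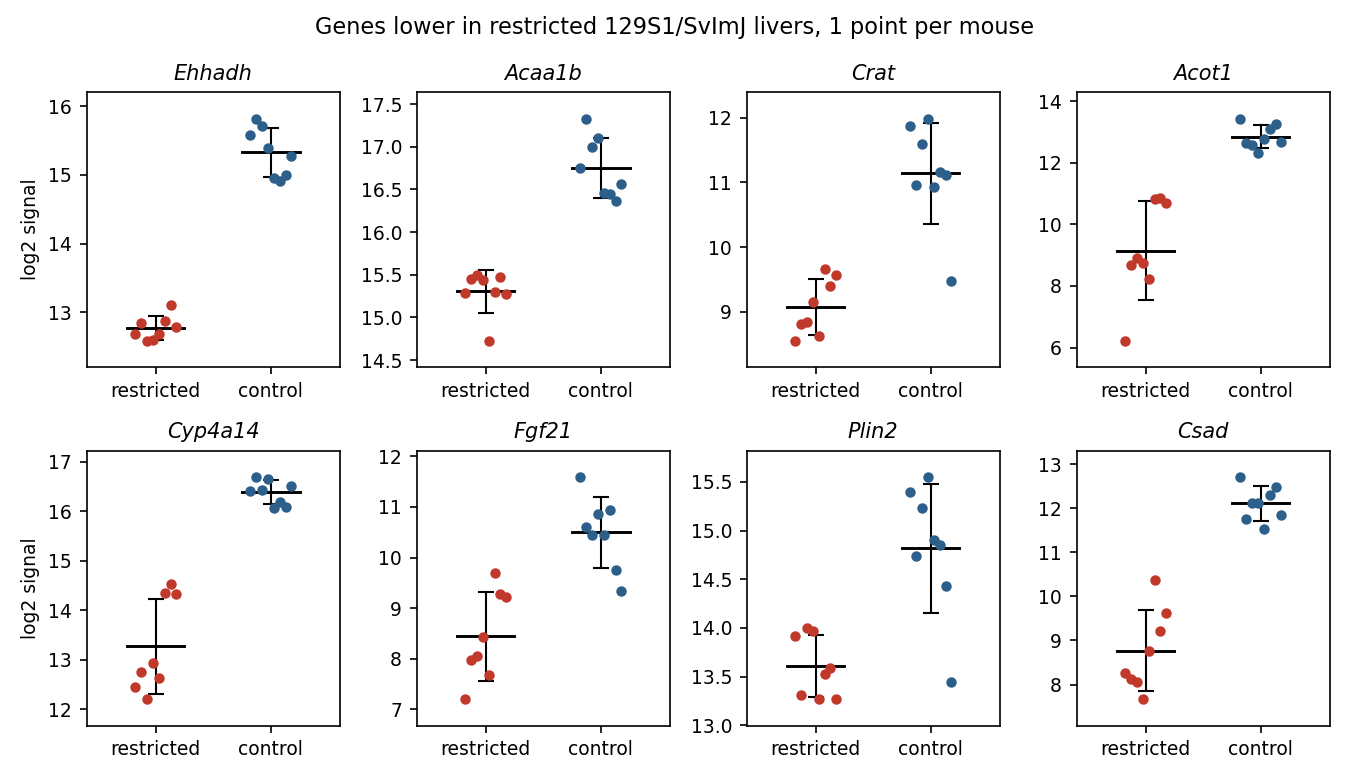
Log2 signal (y axis) of 8 genes that were lower in restricted 129S1/SvImJ livers, 1 point per mouse, with restricted mice left of control mice and the mean ± SD of each group in black. The groups are apart in Ehhadh, Acaa1b, Acot1, Cyp4a14 and Csad, and control replicate 8 lies among the restricted mice in Crat and Plin2.

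The falls of Ehhadh, Acot1 and Cyp4a14 were seen among lower and higher replicate numbers alike. For Ehhadh it was -2.95 over replicates 1 to 4 and -2.18 over replicates 5 to 8. For Acot1 the differences were -4.6 and -2.79, and for Cyp4a14 -3.96 and -2.25. The difference was thus larger among replicates 1 to 4 in all 3 genes, and the labels do not say what the numbers stand for.

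The diet effect in 129S1/SvImJ was then set against the mean diet effect of the other 5 strains, in a test of the difference itself. It was more positive in 129S1/SvImJ for 59 genes (0.398%) and more negative for 102 (0.689%). These counts rested in part on single groups: without CBA/J they were 29 and 36, without control replicate 2 they were 35 and 51, and without the 3 arrays 30 and 35. Without control replicate 1 or 4 the first count was 39, and without restricted replicate 5, control replicate 3 or control replicate 4 the second was 67, 64 and 59. Of the 22 oxidation enzymes, 9 had a more negative diet difference in 129S1/SvImJ than in the other strains, where the list had a median of -0.27. That count was 4 without CBA/J, 5 without the 3 arrays and 5 without restricted replicate 5. Of the 15 PPAR-alpha targets, 6 had a more negative one, against a median of -0.31 in the other strains. That count was 5 without CBA/J, 2 without the 3 arrays and 4 without restricted replicate 1.

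Ehhadh illustrates the contrast. Its diet difference was -2.56 ± 0.22 in 129S1/SvImJ, against -0.47 ± 0.1 on average in the other strains, where it was -0.75 in C57BL6/J, 0.1 in C3H/HeJ, -0.75 in CBA/J, -1.08 in DBA/2J and 0.15 in B6C3F1/J. The difference between these effects was -2.09 ± 0.24, adjusted p = 1.73e-09, and the call held under all 30 alternatives. The same was true of Acaa1b, with -1.45 in 129S1/SvImJ and -0.12 in the other strains (-1.33 ± 0.21, adjusted p = 1.5e-05), and of Cyp4a31, with -2.55 and -0.42 (-2.13 ± 0.31, adjusted p = 1.71e-06). For Crat the effects were -2.07 in 129S1/SvImJ and -0.53 in the other strains (-1.54 ± 0.3, adjusted p = 0.00112), and the call was lost when probe sets were averaged (adjusted p = 0.319). For Acot1 they were -3.7 and -1.58 (-2.12 ± 0.49, adjusted p = 0.0116), and for Cyp4a14 -3.11 and -1.2 (-1.91 ± 0.43, adjusted p = 0.00687). Both calls were lost without the 3 arrays (adjusted p = 0.0595 and 0.069), and that of Acot1 also without restricted replicate 1 (adjusted p = 0.0523). Eci1 (-0.97 ± 0.2, adjusted p = 0.00286) was lost without CBA/J (adjusted p = 0.105). Vnn1 had effects of -2.36 and -1.8 (-0.57 ± 0.29, adjusted p = 0.543).

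Genes of lipid storage were lower in part. Of 22 measured genes of triglyceride assembly and lipid droplets, 6 fell and 0 rose, with a median of -0.11 for the list, and 4 fell without the 3 arrays or without restricted replicate 3. They were Agpat2, Mogat1, Mgll, G0s2, Plin2 and Plin5. Plin2, the main coat protein of hepatocyte lipid droplets, had signals of 13.27, 13.56 and 13.995 in restricted livers, against 13.44, 14.87 and 15.55 in control livers. Control replicate 8, at 13.44, lay among the restricted mice, and the difference was -1.21 ± 0.22, adjusted p = 4.17e-05. Plin2 differed by 0.27 ± 0.1 on average in the other strains, so the effects had opposite signs and their difference was -1.48 ± 0.24, adjusted p = 3.46e-05. This call held under all 30 alternatives. Mgll, which splits monoglycerides, fell without overlap of the groups (log2 difference -1.29 ± 0.18, adjusted p = 1.06e-07). G0s2, an inhibitor of the lipase ATGL, differed by -1.71 ± 0.37, adjusted p = 0.000828. Mogat1, an acyltransferase of triglyceride synthesis, differed by -1.6 ± 0.44, adjusted p = 0.013, a call lost without the 3 arrays (adjusted p = 0.12).

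Genes of fatty acid synthesis were higher in restricted livers. Of 19 measured genes, 8 rose and 1 fell, with a median of 0.85, and 6 rose without the 3 arrays or without restricted replicate 1. Acly, Acss2, Acaca, Acacb, Fasn, Thrsp, Mid1ip1 and Srebf1 rose, and Elovl5, an elongase of polyunsaturated fatty acids, fell. Thrsp, a lipogenic regulator also called Spot 14, had signals of 14.61, 15.47 and 16.12 in restricted livers, against 10.9, 13.69 and 14.02 in control livers. The groups did not overlap, and Thrsp was 5.15-fold higher (log2 difference 2.37 ± 0.39, adjusted p = 6.27e-06). The gap was wider among replicates 1 to 4, at 15.49 to 16.12 in restricted and 10.9 to 13.69 in control mice. Among replicates 5 to 8 the ranges were 14.61 to 15.45 and 13.69 to 14.02. Srebf1, which encodes SREBP-1, had 12.12, 12.82 and 14.01 in restricted livers, against 9.75, 11.54 and 12.002 in control livers (log2 difference 1.69 ± 0.29, adjusted p = 1.4e-05). Acly, which makes cytosolic acetyl-CoA from citrate, differed by 1.68 ± 0.33, adjusted p = 0.000215, and Acss2, which makes it from acetate, by 1.73 ± 0.36, adjusted p = 0.000435. Fasn, fatty acid synthase, had 10.81, 11.42 and 13.83 in restricted livers, against 8.84, 10.49 and 10.7 in control livers. Every restricted mouse was above every control mouse, but the restricted mice were widely spread (log2 difference 1.93 ± 0.58, adjusted p = 0.0289). The call of Fasn was lost without the 3 arrays (adjusted p = 0.212), without control replicate 2, 3 or 8 (adjusted p = 0.0801, 0.0526 and 0.0729) and without restricted replicate 1, 3 or 4 (adjusted p = 0.0985, 0.0882 and 0.0673). Scd1, the stearoyl-CoA desaturase, averaged 16.14 ± 0.81 in restricted livers and 15.93 ± 0.43 in control livers and did not pass the test (0.21 ± 0.25, adjusted p = 0.798).

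RNA of some genes linked to NADPH, the reductant of fat synthesis, was higher, while NADPH itself was not measured. Of 9 measured, 2 rose and 0 fell, and 1 rose without the 3 arrays. Tkt, transketolase of the pentose phosphate pathway, differed by 0.85 ± 0.19, adjusted p = 0.000857, and Pgd, phosphogluconate dehydrogenase, by 0.96 ± 0.25, adjusted p = 0.00829. The call of Pgd was lost without the 3 arrays (adjusted p = 0.0723), and that of Tkt when its probe sets were averaged (adjusted p = 0.0753).

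**Figure D3:**
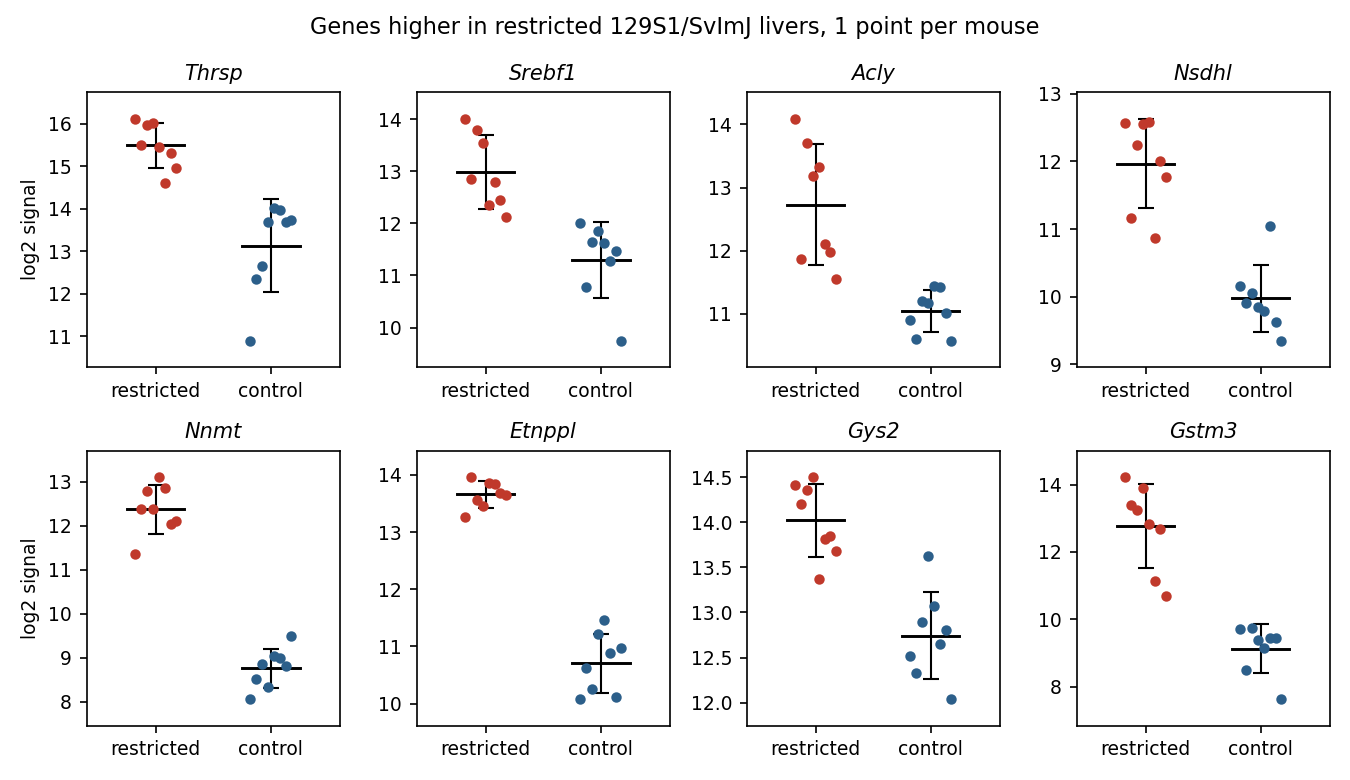
Log2 signal (y axis) of 8 genes that were higher in restricted 129S1/SvImJ livers, 1 point per mouse, with restricted mice left of control mice and the mean ± SD of each group in black. The groups are apart in Thrsp, Srebf1, Acly, Nnmt, Etnppl and Gstm3, while in Nsdhl control replicate 6, at 11.05, and in Gys2 1 control mouse, at 13.63, overlap the restricted mice.

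Genes of cholesterol synthesis rose as well. Of 17 measured enzymes of this pathway, 8 rose and 0 fell, with a median of 0.94, and 6 rose without the 3 arrays. The risen genes were Pmvk, Idi1, Fdps, Lss, Cyp51, Nsdhl, Sc5d and Dhcr7. Promoters were at hand for 15 members of the list. CCAAT, the motif bound by NF-Y, occurred on either strand in 14 of them, against 41.1% of all 27025 genes with a promoter. The 14 included all 7 of the risen genes with a sequence. TCACNCCAC, a sterol regulatory element, occurred in 1 of the 15, against 1.4% of all genes with a promoter, and in 0 of the 7. A gene counted if any of its promoters held the motif. The promoters of 3 of the risen enzymes are shown as examples of these motif counts, from 250 bases before to 50 after the start (RefSeq, GRCm38.p6, both strands searched). Capitals mark CCAAT or its reverse complement.
Nsdhl, chrX:72918271-72918570, + strand: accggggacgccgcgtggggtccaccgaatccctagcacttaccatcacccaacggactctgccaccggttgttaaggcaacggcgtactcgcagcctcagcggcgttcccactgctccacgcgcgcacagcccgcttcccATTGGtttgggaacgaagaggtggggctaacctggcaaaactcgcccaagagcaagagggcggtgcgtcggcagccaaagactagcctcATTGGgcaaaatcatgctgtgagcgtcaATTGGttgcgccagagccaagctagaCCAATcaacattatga
Sc5d, chr9:42264251-42264550, - strand: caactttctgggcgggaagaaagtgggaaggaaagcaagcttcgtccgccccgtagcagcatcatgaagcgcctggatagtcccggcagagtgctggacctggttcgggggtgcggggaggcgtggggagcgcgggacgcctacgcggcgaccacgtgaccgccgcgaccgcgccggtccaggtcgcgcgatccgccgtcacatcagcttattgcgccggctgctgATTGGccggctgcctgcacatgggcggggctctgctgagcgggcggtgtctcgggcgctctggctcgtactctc
Pmvk, chr3:89454291-89454590, + strand: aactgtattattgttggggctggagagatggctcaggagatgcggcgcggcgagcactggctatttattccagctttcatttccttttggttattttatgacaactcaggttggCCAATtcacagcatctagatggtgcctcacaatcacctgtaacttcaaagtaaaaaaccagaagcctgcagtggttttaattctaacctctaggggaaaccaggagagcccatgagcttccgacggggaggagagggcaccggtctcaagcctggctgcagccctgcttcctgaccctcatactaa
The Nsdhl promoter held 4 matches, those of Sc5d and Pmvk 1 each. A match is a description of these letters and not of binding.

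Nsdhl, a sterol dehydrogenase late in the pathway, had signals of 10.86, 12.13 and 12.58 in restricted livers, against 9.35, 9.88 and 11.05 in control livers. The 2 groups overlapped through control replicate 6 alone, and Nsdhl was 3.99-fold higher (log2 difference 1.996 ± 0.29, adjusted p = 2.04e-07). Fdps, farnesyl diphosphate synthase at the branch to sterols, had 11.45, 13.05 and 13.99 in restricted livers, against 9.4, 10.32 and 11.815 in control livers in the same order and was 6.06-fold higher (log2 difference 2.6 ± 0.53, adjusted p = 0.000336). Its highest control was again replicate 6. Pmvk, phosphomevalonate kinase, differed by 1.2 ± 0.26, adjusted p = 0.000782. Sc5d, the lathosterol oxidase, differed by 1.18 ± 0.24, adjusted p = 0.000392, and that call was lost when its probe sets were averaged (adjusted p = 0.482). In the other strains the effects were 1.39 for Nsdhl and 2.01 for Fdps (adjusted p of the difference = 0.564 and 0.841).

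Among 13 genes of sterol sensing and transport, 2 rose and 1 fell, and 1 rose without the 3 arrays. Insig2, which holds SREBP precursors in the endoplasmic reticulum, had signals of 12.003, 12.59 and 12.87 in restricted livers, against 13.19, 13.9 and 14.6 in control livers, without overlap (log2 difference -1.49 ± 0.26, adjusted p = 1.38e-05). In the other strains it differed by 0.15 ± 0.12, ranging from -0.64 in C57BL6/J to 0.7 in C3H/HeJ. The difference between 129S1/SvImJ and the other strains was -1.64 ± 0.28, adjusted p = 0.000116 and held under all 30 alternatives. Abcg5, one subunit of the transporter that exports sterols into bile, rose (log2 difference 1.01 ± 0.22, adjusted p = 0.000627), and its partner Abcg8 was also called (0.87 ± 0.28, adjusted p = 0.0428) but lost the call under 18 of 32 alternatives.

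Some genes of glucose metabolism changed. Of 10 measured glycolysis genes, 3 rose and 1 fell, against 2.79% and 2.47% of all genes tested. Pklr, the liver pyruvate kinase, lay between 10.94 and 12.01 in restricted livers and between 9.74 and 10.33 in control livers (log2 difference 1.23 ± 0.2, adjusted p = 3.88e-06). Pgam1, phosphoglycerate mutase, differed by 0.73 ± 0.14, adjusted p = 0.000148, and Pgk1, phosphoglycerate kinase, by 0.51 ± 0.13, adjusted p = 0.00361. The call of Pgk1 was lost when arrays were centred on their 75th percentile (adjusted p = 0.153). Ldha, which turns pyruvate into lactate, had 13.82, 13.96 and 14.36 in restricted livers, against 14.997, 15.43 and 16.05 in control livers and fell (log2 difference -1.43 ± 0.21, adjusted p = 1.76e-07). Ldha differed by -0.42 ± 0.09 in the other strains, and the 2 effects differed by -1.01 ± 0.23, adjusted p = 0.00687, a call lost without CBA/J (adjusted p = 0.0641) and without the 3 arrays (adjusted p = 0.0881).

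Glycogen genes were measured for 12 members, of which 3 rose and 0 fell, and 1 rose without the 3 arrays. Gys2, the liver glycogen synthase, had signals of 13.37, 14.02 and 14.5 in restricted livers, against 12.04, 12.73 and 13.63 in control livers (log2 difference 1.28 ± 0.24, adjusted p = 8.17e-05). Pygl, the liver glycogen phosphorylase, differed by 0.62 ± 0.17, adjusted p = 0.0135, a call lost without the 3 arrays (adjusted p = 0.0611).

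Of 14 measured gluconeogenesis genes, 3 rose and 0 fell, and 6 rose under quantile normalisation. Slc37a4, the glucose 6-phosphate transporter, differed by 0.85 ± 0.19, adjusted p = 0.000871, and Got1, the cytosolic aspartate aminotransferase, by 1.72 ± 0.47, adjusted p = 0.0126. Ppargc1a, a coactivator of fasting genes, differed by 0.9 ± 0.21, adjusted p = 0.00281. Pck1, the cytosolic enzyme that commits to gluconeogenesis, averaged 14.94 ± 0.5 in restricted livers and 14.82 ± 0.49 in control livers and did not pass the test (0.12 ± 0.28, adjusted p = 0.922, 95% interval -0.42 to 0.67). G6pc, glucose 6-phosphatase, averaged 12.82 ± 1.12 in restricted livers and 13.41 ± 0.49 in control livers and did not pass it either (-0.59 ± 0.32, adjusted p = 0.369). Its restricted mice were split by replicate number. Restricted replicates 6, 7 and 8, at 13.99, 13.94 and 14.35, lay above every control mouse. Restricted replicates 1 to 5 lay between 11.6 and 12.75, against 12.62 to 13.93 in control mice. G6pc differed by 0.8 ± 0.14 in the other strains, and the 2 effects differed by -1.39 ± 0.35, adjusted p = 0.0211. That call was lost without CBA/J (adjusted p = 0.0928), without the 3 arrays (adjusted p = 0.0553) and without restricted replicate 1, 3 or 5 or control replicate 3 or 4 (adjusted p = 0.053 to 0.0758).

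Genes under insulin and growth hormone were also measured. Igfbp1, which insulin lowers, had signals of 11.99, 13.19 and 14.03 in restricted livers, against 12.36, 12.99 and 13.39 in control livers and a difference of 0.28 ± 0.33, adjusted p = 0.799. Restricted replicates 6, 7 and 8, at 14.03, 13.94 and 13.75, lay above every control mouse, and restricted replicates 1 to 5 between 11.99 and 13.35. In the other strains Igfbp1 was higher in restricted mice, by 1.35 in B6C3F1/J up to 2.42 in CBA/J, with a mean of 1.8 ± 0.15. The difference between 129S1/SvImJ and these strains was -1.53 ± 0.36, adjusted p = 0.0123, and the call was lost without CBA/J (adjusted p = 0.0747) and without the 3 arrays (adjusted p = 0.0919). Igf1, the hormone induced in liver by growth hormone, averaged 14.79 ± 0.23 in restricted livers and 14.48 ± 0.27 in control livers (0.31 ± 0.25, adjusted p = 0.636). Igfbp2, another IGF binding protein, fell (log2 difference -1.18 ± 0.24, adjusted p = 0.000412). It was 1 of 2 genes that fell among 14 of the growth hormone and IGF1 axis, where 0 rose, and 1 fell without the 3 arrays.

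Amino acid metabolism changed in single genes, some by a wide margin. Etnppl, a lyase that breaks down phosphoethanolamine and is a periportal gene, had signals of 13.27, 13.66 and 13.96 in restricted livers, against 10.08, 10.76 and 11.46 in control livers. The groups were far apart and Etnppl was 7.75-fold higher (log2 difference 2.95 ± 0.25, adjusted p = 2.46e-16). Csad, the decarboxylase of taurine synthesis, had 7.67, 8.52 and 10.38 in restricted livers, against 11.55, 12.13 and 12.72 in control livers and was 10.2-fold lower (log2 difference -3.35 ± 0.28, adjusted p = 6.55e-17). Both changed further in 129S1/SvImJ than in the other strains, where Etnppl differed by 1.03 and Csad by -1.61. The differences between the effects were 1.93 ± 0.28, adjusted p = 1.71e-06 for Etnppl and -1.74 ± 0.3, adjusted p = 0.000134 for Csad, and both calls held under all 30 alternatives. Of 25 measured amino acid breakdown genes, 2 rose and 2 fell, with Csad among those that fell. Quantile normalisation gave 6 rises, and without the 3 arrays 0 rose and 1 fell.

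Atf5, a transcription factor of the integrated stress response, fell (log2 difference -1.55 ± 0.25, adjusted p = 2.66e-06). Of 20 measured members of that response 2 rose, Asns and Ddit4, and 1, Atf5, fell. The rises are uncertain: the calls were lost under 14 of 32 alternatives for Asns and 10 of 32 for Ddit4. Without the 3 arrays 0 members rose and 2 fell, and 0 rose without restricted replicate 4 or 5 or control replicate 1, 2 or 3. Asl, the urea cycle enzyme argininosuccinate lyase, differed by 0.76 ± 0.23, adjusted p = 0.0298, the 1 call among 9 urea cycle genes, where quantile normalisation gave 5. It was lost when arrays were centred on their 75th percentile (adjusted p = 0.17), without CBA/J (adjusted p = 0.0518), without restricted replicate 3 or 4 (adjusted p = 0.0609 and 0.0711) and without control replicate 6 or 7 (adjusted p = 0.0568 and 0.0735).

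Some genes of nicotinamide metabolism changed. Nnmt, which methylates nicotinamide with S-adenosylmethionine, had signals of 11.35, 12.38 and 13.11 in restricted livers, against 8.06, 8.83 and 9.49 in control livers. Every restricted mouse was above every control mouse, and Nnmt was 12.3-fold higher (log2 difference 3.62 ± 0.4, adjusted p = 3.96e-11). Of 18 measured genes of NAD and nicotinamide metabolism, 3 rose and 1 fell, against 2.79% and 2.47% of all genes tested. Nadsyn1, the last enzyme of NAD synthesis from tryptophan or nicotinic acid, differed by 0.84 ± 0.17, adjusted p = 0.000213. Aox1, an aldehyde oxidase that also oxidises methylated nicotinamide, fell (log2 difference -1.03 ± 0.16, adjusted p = 1.88e-06).

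Bile acid genes fell more often than they rose. Of 20 measured, 4 fell and 1 rose, with a median of -0.15. Abcb4, which moves phospholipid into bile, had signals of 12.03, 12.97 and 13.27 in restricted livers, against 13.43, 14.16 and 14.62 in control livers, without overlap (log2 difference -1.22 ± 0.18, adjusted p = 4.77e-07). Cyp8b1, the hydroxylase that sets the share of cholic acid, differed by -1.15 ± 0.23, adjusted p = 0.000179, and Hsd3b7, an early enzyme of bile acid synthesis, by -0.91 ± 0.18, adjusted p = 0.000235. In the other strains the effects were -0.23 for Abcb4 and -0.03 for Cyp8b1. Those of 129S1/SvImJ differed from them by -0.99 ± 0.2, adjusted p = 0.00172 for Abcb4 and -1.12 ± 0.25, adjusted p = 0.00628 for Cyp8b1, both lost without CBA/J (adjusted p = 0.11 and 0.161). Cyp39a1, an oxysterol hydroxylase, rose (log2 difference 1.17 ± 0.26, adjusted p = 0.001). Cyp7a1, which starts the classic route from cholesterol to bile acids, averaged 13.57 ± 0.59 in restricted livers and 14.17 ± 0.53 in control livers and did not pass the test (-0.6 ± 0.26, adjusted p = 0.212).

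Of 23 measured genes of drug oxidation and its receptors, 8 fell and 2 rose, with a median of -0.36, and 3 fell without the 3 arrays and 5 without restricted replicate 1 or 5. The fallen genes were Nr1i3, which encodes the receptor CAR, Cyp2c29, Cyp2c50, Cyp2c54, Cyp3a11, Ephx1, Ces1d and Ces2a. Ephx1, the microsomal epoxide hydrolase, had signals of 12.09, 12.47 and 12.65 in restricted livers, against 13.44, 14.04 and 15.04 in control livers, without overlap (log2 difference -1.75 ± 0.22, adjusted p = 2.17e-09). In the other strains it differed by -0.59, and the effects differed by -1.16 ± 0.24, adjusted p = 0.00226, a call that held under all 30 alternatives. Cyp2c54 fell (log2 difference -1.13 ± 0.23, adjusted p = 0.000235), whereas its relative Cyp2c70, which makes muricholic acids in mice, rose (log2 difference 1.58 ± 0.22, adjusted p = 7.11e-08). Cyp3a11, a main drug hydroxylase of mouse liver, differed by -0.76 ± 0.18, adjusted p = 0.00193, a call lost without the 3 arrays (adjusted p = 0.119). Probe sets of these gene families may take up RNA of near-identical relatives, so single members are uncertain.

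Conjugation enzymes rose for 7 and fell for 3 of 24 measured genes, and 4 rose without the 3 arrays. Gsta2, Gsta4, Gstm2, Gstm3, Gstm6, Gstt3 and Sult1c2 rose, and Gstm4, Ugt2b35 and Ugt3a1 fell. Gstm3, a glutathione S-transferase, had signals of 10.71, 13.03 and 14.22 in restricted livers, against 7.64, 9.42 and 9.76 in control livers, without overlap, and was 12.4-fold higher (log2 difference 3.63 ± 0.4, adjusted p = 4.12e-11). Gstm2 of the same family differed by 1.03 ± 0.23, adjusted p = 0.00132, a call lost without the 3 arrays (adjusted p = 0.0766). The glucuronosyltransferases Ugt3a1 and Ugt2b35 differed by -0.86 ± 0.18, adjusted p = 0.000763, and by -0.77 ± 0.17, adjusted p = 0.000968. Both were lower in restricted livers.

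Cytosolic heat shock chaperones were lower for 6 of 19 measured genes, with 0 higher and a median of -0.48. The count was 2 without the 3 arrays, 3 without control replicate 8 and 10 when probe sets were averaged. The fallen genes were Hspa8, Hsph1, Hsp90aa1, Dnajb1, Stip1 and Chordc1. Of 17 members with a promoter sequence, 11 held GAANNTTC, the core of the heat shock element, against 9.0% of all genes with a promoter. Of the 4 fallen genes with a sequence, 2 held it, and both are shown (RefSeq, GRCm38.p6, 250 bases before to 50 after the start, capitals marking the motif).
Hsph1, chr5:149636266-149636565, - strand: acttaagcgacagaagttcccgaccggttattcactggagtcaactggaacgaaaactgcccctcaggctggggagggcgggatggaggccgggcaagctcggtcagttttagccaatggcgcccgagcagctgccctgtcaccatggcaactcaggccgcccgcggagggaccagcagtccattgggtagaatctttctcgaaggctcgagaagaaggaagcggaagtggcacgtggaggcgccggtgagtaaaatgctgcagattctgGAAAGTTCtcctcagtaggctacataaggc
Chordc1, chr9:18292017-18292316, + strand: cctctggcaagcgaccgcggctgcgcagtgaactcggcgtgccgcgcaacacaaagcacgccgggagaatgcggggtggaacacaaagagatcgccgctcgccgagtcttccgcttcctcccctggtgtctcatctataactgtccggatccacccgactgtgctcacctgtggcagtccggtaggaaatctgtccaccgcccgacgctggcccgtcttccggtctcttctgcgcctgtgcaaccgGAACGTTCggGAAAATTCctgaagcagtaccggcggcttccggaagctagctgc
Hsph1, a nucleotide exchange factor for HSP70, had signals of 8.32, 8.97 and 10.21 in restricted livers, against 9.75, 10.22 and 11.48 in control livers (log2 difference -1.31 ± 0.26, adjusted p = 0.000191). Hsp90aa1, the inducible HSP90, differed by -0.84 ± 0.22, adjusted p = 0.00995. Hspa8, the constitutive HSC70, differed by -0.83 ± 0.23, adjusted p = 0.0126 and Chordc1, an HSP90 co-chaperone, by -0.8 ± 0.21, adjusted p = 0.00698. The calls of Hspa8 and Chordc1 were lost without the 3 arrays (adjusted p = 0.167 and 0.235), and that of Chordc1 without control replicate 8 (adjusted p = 0.0653), its highest control at 11.78.

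Proteasome subunits fell for 10 of 31 measured genes, with 0 higher and a median of -0.32. The count was 7 without the 3 arrays and 4 when arrays were centred on their 75th percentile. The fallen genes were Psma5, Psmc4, Psmc6, Psmd1, Psmd3, Psmd4, Psmd6, Psmd11, Psmd12 and Psmd14, all of the 19S cap except Psma5 of the core. Psmd1, a scaffold subunit of the 19S cap, lay between 11.02 and 11.46 in restricted livers and between 12.03 and 12.57 in control livers (log2 difference -1.02 ± 0.19, adjusted p = 5.59e-05). Psmd11 of the same cap differed by -0.84 ± 0.17, adjusted p = 0.000418. Psmb10, a catalytic subunit of the immunoproteasome, rose instead, with signals of 10.38, 11.01 and 11.43 in restricted livers, against 9.16, 9.87 and 10.15 in control livers (log2 difference 1.22 ± 0.19, adjusted p = 7.09e-07). It was 1 of 3 genes that rose among 15 of antigen presentation, where 0 fell, and 1 rose with the 75th percentile. Psmb8, another immunoproteasome subunit, differed by 0.75 ± 0.2, adjusted p = 0.0102, a call lost when arrays were centred on their 75th percentile (adjusted p = 0.0861), quantile normalised (adjusted p = 0.0616) or probe sets averaged (adjusted p = 0.0807).

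In autophagy and the lysosome, 5 of 20 measured genes fell and 1 rose, and 3 fell without the 3 arrays. Map1lc3a, Sqstm1, Lamp2, Lipa and Dnase2a fell, and Ctsl, a lysosomal protease, rose, although 0 rose without the 3 arrays. Dnase2a, the lysosomal deoxyribonuclease, had signals of 7.52, 9.03 and 9.84 in restricted livers, against 10.53, 10.92 and 11.84 in control livers, without overlap (log2 difference -2.28 ± 0.37, adjusted p = 3.99e-06). Map1lc3a, an LC3 protein of autophagosomes, fell (log2 difference -0.95 ± 0.18, adjusted p = 6.73e-05). Sqstm1, the autophagy receptor, differed by -0.8 ± 0.19, adjusted p = 0.00305, a call lost when its probe sets were averaged (adjusted p = 0.166).

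Sex-biased genes, which in mice follow the pattern of growth hormone secretion, were examined in these male livers. Among female-biased genes, 15 were measured, 4 rose and 0 fell, with a median of 0.87. The count was 1 without restricted replicate 7, and 2 without restricted replicate 3, 4 or 6, without control replicate 1, 3 or 7, under quantile normalisation or with the 75th percentile. TTCNNNGAA, the element of STAT5, occurred in the promoters of 3 of 15 female-biased and 2 of 13 male-biased genes with a sequence. The share of all genes with a promoter was 9.6%. Hao2, a peroxisomal hydroxyacid oxidase, had signals of 6.26, 7.79 and 8.44 in restricted livers, against 2.29, 3.77 and 6.62 in control livers (log2 difference 3.53 ± 0.68, adjusted p = 0.00013), and its control level lay below the mean array median. Cyp2b10, Fmo2 and Tox were also called (2.24 ± 0.61, adjusted p = 0.0127, 1.14 ± 0.35, adjusted p = 0.034, and 0.87 ± 0.27, adjusted p = 0.0355), but the calls were lost under 5 of 31 alternatives for Cyp2b10, 13 of 32 for Fmo2 and 13 of 32 for Tox. The control level of Cyp2b10, like that of Hao2, lay below the mean array median, so the size of its difference is uncertain. Of 16 measured male-biased genes, 2 fell and 0 rose, with a median of -0.31. Elovl3, a fatty acid elongase, differed by -1.28 ± 0.25, adjusted p = 0.000183. Cyp4a12a, an androgen-dependent hydroxylase, differed by -1.83 ± 0.51, adjusted p = 0.0163, a call lost without restricted replicate 3 (adjusted p = 0.057). Hsd3b5, a male-specific steroid dehydrogenase, averaged 11.46 ± 1.14 in restricted livers and 12.77 ± 0.54 in control livers and did not pass the test (-1.31 ± 0.5, adjusted p = 0.13). The difference from the other strains, where Hsd3b5 differed by -2.85 ± 0.23, did not pass it either (1.54 ± 0.55, adjusted p = 0.209).

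Clock genes rose for 4 and fell for 1 of 19 measured, with a median of 0.45, but 1 rose without the 3 arrays and 2 without control replicate 2. The hour of collection was not stated. Per2, Per3, Tef and Usp2 rose, and Clock, an activator of the core loop, fell, although 0 fell without the 3 arrays. Tef and Usp2, both output genes of the clock, differed by 0.59 ± 0.15, adjusted p = 0.00589, and by 1.21 ± 0.31, adjusted p = 0.00743. Usp2 had signals of 11.16, 11.99 and 12.17 in restricted livers, against 8.85, 10.98 and 11.72 in control livers, and the spread was wider in the control mice. Its difference was 1.98 over replicates 1 to 4 and 0.44 over replicates 5 to 8. The call of Usp2 was lost without control replicate 1 (adjusted p = 0.0508) and without the 3 arrays (adjusted p = 0.0563). Per2 and Per3, repressors of the core loop, differed by 1.41 ± 0.41, adjusted p = 0.0226, and by 0.95 ± 0.25, adjusted p = 0.00992. Both were lost without control replicate 2 (adjusted p = 0.116 and 0.0503) and Per2 also without control replicate 8 (adjusted p = 0.0675) or restricted replicate 6 (adjusted p = 0.0509). The call of Tef was lost with the mean of its probe sets (adjusted p = 0.0705) and that of Per3 likewise (adjusted p = 0.403). The metallothioneins Mt1 and Mt2, which glucocorticoids and zinc induce, rose (1.44 ± 0.34, adjusted p = 0.00306, and 1.56 ± 0.41, adjusted p = 0.0102), the 2 calls among 14 glucocorticoid targets. The call of Mt1 was lost when its probe sets were averaged (adjusted p = 0.0847).

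Several of the largest rises started from control levels below the mean array median of 6.707. Gnat1, a G protein subunit known from rod photoreceptors, had signals of 7.11, 8.15 and 9.33 in restricted livers, against 1.82, 3.91 and 6.89 in control livers (log2 difference 3.83 ± 0.48, adjusted p = 2.19e-09). Prss8, a membrane serine protease, had 7.63, 8.16 and 9.38 in restricted livers, against 3.49, 5.52 and 7.34 in control livers (log2 difference 3.01 ± 0.34, adjusted p = 4.12e-11), and Cyp2g1, a cytochrome P450 known from olfactory tissue, 6.97, 8.29 and 8.93 in restricted livers, against 2.95, 5.84 and 6.94 in control livers (log2 difference 2.7 ± 0.33, adjusted p = 8.56e-10). The groups were apart in all 3, while their fold sizes are uncertain. Blnk, an adaptor of B cell receptor signalling, overlapped (log2 difference 2.07 ± 0.35, adjusted p = 6.27e-06). The effects of these 4 genes in the other strains were 0.6, 0.71, 0.04 and 0.18. The differences from them were 3.23 ± 0.53, adjusted p = 3.46e-05 for Gnat1 and 2.29 ± 0.37, adjusted p = 3.46e-05 for Prss8. They were 2.66 ± 0.36, adjusted p = 3.97e-07 for Cyp2g1 and 1.89 ± 0.38, adjusted p = 0.0015 for Blnk, and all 4 calls held under all 30 alternatives. The mean of 7 measured markers of T and B lymphocytes was 6.76 ± 0.53 in restricted livers and 6.21 ± 0.52 in control livers (exact permutation p = 0.0556, adjusted p = 0.322), 4 of them below the array median in both groups, and their part in the result for Blnk was not tested.

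Among large falls outside the lists, Chrna2, a nicotinic acetylcholine receptor subunit, had signals of 4.28, 6.55 and 8.1 in restricted livers, against 8.62, 9.47 and 10.03 in control livers, without overlap (log2 difference -2.73 ± 0.45, adjusted p = 3.99e-06). Obp2a, a lipocalin, had 5.31, 7.3 and 8.44 in restricted livers, against 8.84, 9.51 and 10.57 in control livers, also without overlap (log2 difference -2.42 ± 0.53, adjusted p = 0.00091). Mbl1, a mannose-binding lectin made by the liver, differed by -1.34 ± 0.24, adjusted p = 3.18e-05 and was the 1 called gene among 23 of complement and coagulation. Of 26 interferon-stimulated genes, 2 rose and 1 fell, a balance that turned on single mice: 6 rose without restricted replicate 8, 5 fell without restricted replicate 5, 0 rose under quantile normalisation, and 1 rose and 3 fell without the 3 arrays. The fallen one was Rsad2, an antiviral enzyme, with 4.7, 8.003 and 9.46 in restricted livers, against 8.54, 8.9 and 9.19 in control livers and a low spread in the control mice (log2 difference -1.33 ± 0.29, adjusted p = 0.000767). Oas1a, a sensor of double-stranded RNA, was among the risen ones (0.97 ± 0.25, adjusted p = 0.00624). The calls of Rsad2 and Oas1a were lost when the 16 arrays were fitted alone with a replicate block (adjusted p = 0.0569 and 0.0886). GAAANNGAA, part of the interferon element, occurred in 18 of the 23 list members with a promoter sequence. The share of all genes with a promoter was 9.8%.

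Counts of calls in the other groups were small and stand beside 2.79% higher and 2.47% lower among all genes tested. In lists this short, 1 call is already a larger share than these. Periportal and one-carbon genes had more than 1 call in the same direction. Of 14 measured cytosolic ribosomal proteins, 0 were called, with a median of 0.01. Of 30 respiratory chain subunits, 1 rose, with a median of 0.29, and 10 rose under quantile normalisation, 3 without control replicate 4 and 0 without CBA/J. The 13 pericentral hepatocyte genes had 0 calls, and the 12 periportal ones had 3 rises, Etnppl and Asl among them. Apolipoproteins and lipoprotein enzymes had 0 calls among 15, with medians of -0.39 in 129S1/SvImJ and 0.24 in the other strains. For 4 of them the difference between these effects was called, and for 0 without CBA/J or without the 3 arrays. Acute phase proteins had 1 rise and 1 fall among 24 and 0 calls without the 3 arrays, and NRF2 targets and antioxidant enzymes 1 fall among 17 and 0 without them. Insulin and FOXO signalling had 1 rise among 17 and p53 targets 1 fall among 10, and both counts were 0 without the 3 arrays. One-carbon genes had 2 rises and 2 falls among 15, with 1 rise without the 3 arrays. Chaperones of the endoplasmic reticulum had 1 rise among 23, and cell cycle genes 1 among 17. Some of these small counts changed when single mice were left out, such as those of acute phase proteins and p53 targets. The 1 rise among chaperones of the endoplasmic reticulum and the 2 falls among one-carbon genes stayed. Of the cell type markers, Col3a1 of stellate cells rose (1.02 ± 0.25, adjusted p = 0.00414), with 11.69 in restricted replicate 5, a call lost without the 3 arrays (adjusted p = 0.0897). Dcn of the same cells differed by -0.57 ± 0.18, adjusted p = 0.0485 and Alas2 of red cells by -0.72 ± 0.21, adjusted p = 0.0245. These calls were lost under 19 of 32 alternatives for Dcn and 6 of 32 for Alas2.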

How the data were processed

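Signals of 45101 probe sets were deposited for each of 96 Affymetrix mouse genome arrays as linear intensity values, made by the authors with MAS5 per the submitters' processing notes; the mean trimmed by 2% at each end was 500 on every array. The software version was not stated in these sources. Detection calls were not used. Each mouse gave 1 array, and the number of arrays limits the precision. Here the 64 control probe sets were dropped, signals were taken to log2, and probe sets at or above the array median on at least 8 arrays were kept (32984). Of the probe sets, 34958 carried 1 gene symbol, 932 several and 9211 none, and 34754 matched the gene table. The probe set with the highest mean stood for its gene. limma 3.58.1 (R 4.3.3) was fitted to 12 strain and diet groups with 84 residual degrees of freedom (eBayes with trend and robust, Benjamini-Hochberg over 14813 genes), and errors after ± are SE of a difference or, beside means, SD of 8 mice. It was also run on simulated data with independent noise of equal spread on every array. Those data held no outlying arrays and no split by replicate number, so that run does not cover such features. Figures used matplotlib 3.10.9. The comparison, the 40 process and 11 marker lists and the named genes were chosen with earlier results of these data known. Values are given for genes among the 12 largest changes each way and among up to 4 members per list with the smallest p. They are also given for genes among the 8 largest differences from other strains each way and a few fixed genes. Not every gene of these sets is printed, so the extremes shown are not the full top sets. Further called members are named without values, after their results were seen. Some genes are not reported here.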

Additional observations from a re-analysis of the deposited data

Results flagged for a closer look

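Of 204 groups of 8 values examined, 13 (6.4%) held 1 mouse far from the other 7, and chance gives about 1 in 20. Restricted replicate 5 gave 7 of them, as 1 of the 3 arrays that stood apart. It was lowest for Acaa1b at 14.73 (nearest other restricted mouse 15.28), Cpt1a at 13.01 (14.08), Slc37a4 at 13.4 (14.13), Abcb4 at 12.03 (12.75), Abcg8 at 11.33 (12.28) and Usp2 at 11.16 (11.74). It was highest for Col3a1 at 11.69 (10.08). Control replicate 8 was lowest for Crat at 9.48 (nearest other control 10.93) and highest for Chordc1 at 11.78 (10.56). Control replicate 6 was highest for 2 cholesterol synthesis genes, Fdps at 11.81 (10.35) and Nsdhl at 11.05 (10.15). Restricted replicate 6 was lowest for Scd1 at 14.33 (15.78), and control replicate 7 for Psmb8 at 8.91 (9.4).

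For 28 of the genes described, the log2 diet difference of 129S1/SvImJ differed from the mean of the other 5 strains at an adjusted p under 0.05 (limma). It was more negative among PPAR-alpha targets and oxidation enzymes, by -2.13 for Cyp4a31, -2.12 for Acot1, -2.09 for Ehhadh, -1.91 for Cyp4a14, -1.54 for Crat, -1.51 for Fgf21, -1.33 for Acaa1b and -0.97 for Eci1. Other lipid and sterol genes were Insig2 at -1.64 and Plin2 at -1.48. In glucose metabolism and the IGF axis the values were -1.53 for Igfbp1, -1.39 for G6pc, -1.06 for Igfbp2 and -1.01 for Ldha. They were -1.74 for Csad and -0.7 for Aox1. Among genes of bile acids and drug metabolism they were -1.16 for Ephx1, -1.12 for Cyp8b1, -1.0 for Cyp3a11, -0.99 for Abcb4 and -0.77 for Hsd3b7. For Psmd11 the value was -0.69, a call lost under 17 of 30 alternatives, down to -0.353 with probe sets averaged (adjusted p = 0.563). It was more positive in 129S1/SvImJ for Gnat1 at 3.23, Cyp2g1 at 2.66, Prss8 at 2.29, Etnppl at 1.93, Blnk at 1.89 and Psmb10 at 0.82. Of 30 alternatives each, the call was lost under 10 for Aox1, 9 for Hsd3b7, 9 for G6pc, 6 for Fgf21, 6 for Igfbp2, 5 for Psmb10, 3 for Ldha, 3 for Cyp3a11, 2 for Acot1, 2 for Igfbp1 and 1 each for Cyp4a14, Eci1, Crat, Abcb4 and Cyp8b1. Single mice ended it for Fgf21 (restricted replicate 1 or 5, control replicate 1 or 4), Igfbp2 (restricted replicate 5, control replicate 2 or 4) and Psmb10 (restricted replicate 3, control replicate 7). For Aox1 these were restricted replicates 3 and 4 and control replicates 1, 3, 4, 5 and 7, and for Hsd3b7 restricted replicates 6 and 8 and control replicates 1 to 4. The calls of the other 12 genes held under all 30.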

How the results depend on the processing

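The 413 higher and 366 lower genes became 259 and 246 when arrays were centred on their 75th percentile, 820 and 690 with array weights, and 761 and 626 without the arrays of other strains with a median above 8. Among 186 genes the naming rule takes, 37 diet calls were lost without the 3 arrays that stood apart, 31 with the 75th percentile, 21 without control replicate 2, 19 without restricted replicate 3, 18 with probe sets averaged and 16 with quantile normalization, and at most 17 under any other setting. Leaving out 1 mouse gave 329 to 412 higher and 289 to 356 lower genes. Counts of genes whose effect differed from the other strains, 59 more positive and 102 more negative, moved to 25 and 43 with the 75th percentile, 212 and 224 with array weights, 212 and 247 without those arrays of high median, 29 and 36 without CBA/J, and 30 and 35 without the 3 arrays that stood apart. Quantile normalization gave 63 more negative, and a block of replicates 1 to 4 against 5 to 8 gave 89 more positive. Leaving out 1 mouse gave 35 to 74 and 51 to 114, both lowest without control replicate 2. The removal of the 3 arrays and that block were chosen after seeing the data. The difference from the other strains changed sign for Bhmt, -0.67 without and 0.071 after quantile normalization, for Mgst1, -0.64 against 0.051 after quantile normalization and 0.05 with probe sets averaged, and for Cyp2e1, -0.61 against 0.121 after quantile normalization. The cause of these moves was not tested. Replicate numbers are not stated to pair the mice, and same-numbered mice correlated by -0.013 to 0.112, with 2 of 8 closest to their own number. With the replicate number as a block, 409 genes were higher and 375 lower.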

Other observations

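Arrays with replicate numbers 1 to 4 and 5 to 8 differed in both diet groups. On the first principal component, restricted replicates 1 to 4 scored -43.8 to -26.3 and restricted replicates 5 to 8 scored -15.3 to 15.1. On the second, control replicates 1 to 4 scored -59.5 to -32.6 and control replicates 5 to 8 scored -7.1 to 34.9. The median log2 signal was 6.807 to 6.987 on restricted 1 to 4 and 6.643 to 6.794 on restricted 5 to 8. On control arrays it was 6.803 to 6.968 and 6.634 to 6.769. Beta-actin 3' minus 5' signal, an RNA quality measure, was 0.724 to 0.923 and 1.053 to 1.493 on restricted arrays but overlapped on control arrays. That of Gapdh overlapped in both diets. For beta-actin, restricted replicate 5 (1.493) and control replicate 2 (1.456) were highest, and control replicate 8 had 1.17. Deviations of mice from their group means correlated by a median of 0.041 between restricted 1 to 4 and control 1 to 4, and by 0.04 between restricted 5 to 8 and control 5 to 8. Between 1 to 4 of one diet and 5 to 8 of the other the medians were -0.042 and -0.04. The labels do not say what the numbers stand for.

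Of 147 genes with several probe sets called when each was tested singly, 1 had probe sets called in opposite directions. It was Tlcd1, with 2 higher and 1 lower, singled out after its values were seen.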
